A study of Mus musculus with 13 samples.

Results

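The 9 genes described here encode brakes on the ERK pathway, and were followed by symbol through both sets of sorted endothelial cells (ECs) in the series. They are 4 dual-specificity phosphatases (Dusp2, Dusp4, Dusp5 and Dusp6), 3 Sprouty genes (Spry1, Spry2 and Spry4) and 2 Spred genes (Spred1 and Spred2). The 9 members were found among the 24984 genes listed for tumor ECs and among the 24421 genes listed for sprout ECs. All 9 passed the filter on low counts in both sets.

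The tumor ECs came from orthotopic E0771 mammary carcinomas in C57BL/6J mice and were sorted as DAPI-, CD45-, CD31+, CD105+ cells, with 100 cells per library. Apln-depleted libraries (n = 3) came from Apln-/- mice whose tumor cells carried shApln, and wild-type libraries (n = 6) from Apln+/+ mice whose tumor cells carried the control hairpin shRenilla. Apelin was therefore removed in the host and in the tumor cells together, and the part of each cannot be told apart. The sprout ECs were CD31+ cells sorted, with no CD45 or CD105 gate, from embryoid bodies of haploid mouse embryonic stem cells (C57BL/6x129, female) that carry a gene trap in the first intron of Apln. In the sense orientation the trap is meant to stop the transcript (STOP, n = 2). In Cre-reverted sister cells it lies antisense and is meant to let the transcript pass (GO, n = 2). All sprouts received VEGFA164 at 30 ng/ml. The labels give 1000 nM for the Apelin peptide Pyr13. The legends of the study put that peptide in the GO sprouts and DMSO in the STOP sprouts, so the trap, the Cre step and the added peptide differ together between STOP and GO and cannot be told apart. Both comparisons were designed to leave the cells with less Apelin, a peptide that signals through the receptor Aplnr. In the sprout libraries the Apln count was not lower in STOP, as given below.

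ERK is the last kinase of a chain that runs from receptor tyrosine kinases such as the VEGF receptor Kdr through Ras, Raf and MEK, and in ECs it drives proliferation and sprouting. Its activity induces its own inhibitors. DUSP phosphatases remove the activating phosphates from ERK, Sprouty proteins interrupt the signal between the receptor and Raf, and Spred proteins bring the Ras-inactivating protein neurofibromin to the membrane. Because these genes are switched on by ERK, their transcripts are often read as a record of recent pathway activity.

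The bases before the start of transcription are shown for Dusp2, the one member called changed in either comparison, and for Dusp5 and Dusp6, the phosphatases that act most selectively on ERK. The sequences are RefSeq's on GRCm38.p6, the assembly behind mm10, read 5′ to 3′ on the plus strand, which is the coding strand of all 3 genes. Dusp2 is shown from chr2:127335909-127336158, Dusp5 from chr19:53528895-53529108 and Dusp6 from chr10:99262981-99263230. Each run ends before the earlier of the RefSeq and GENCODE gene starts. Capitals mark CArG boxes, the binding motif of serum response factor.
Dusp2: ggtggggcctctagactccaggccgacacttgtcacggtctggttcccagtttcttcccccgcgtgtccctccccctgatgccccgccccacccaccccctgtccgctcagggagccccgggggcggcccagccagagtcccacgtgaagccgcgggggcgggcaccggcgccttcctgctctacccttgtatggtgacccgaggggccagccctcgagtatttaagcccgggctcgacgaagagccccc
Dusp5: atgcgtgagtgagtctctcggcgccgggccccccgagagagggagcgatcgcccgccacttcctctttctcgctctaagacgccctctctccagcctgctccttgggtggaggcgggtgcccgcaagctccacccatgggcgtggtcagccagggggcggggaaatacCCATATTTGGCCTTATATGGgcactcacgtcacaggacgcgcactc
Dusp6: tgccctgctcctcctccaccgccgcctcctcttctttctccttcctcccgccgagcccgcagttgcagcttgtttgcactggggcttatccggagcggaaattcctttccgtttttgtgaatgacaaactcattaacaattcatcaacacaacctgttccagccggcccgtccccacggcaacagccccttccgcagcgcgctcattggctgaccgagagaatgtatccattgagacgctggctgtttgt

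The letters of 4 motifs of factors that act below ERK or cyclic AMP were searched on both strands in the 250 bases before the start of the 7 members that the promoter table holds (all but Dusp4 and Spry4). They were the CRE (TGACGTCA), the AP-1 site (TGACTCA), an ETS site (CCGGAA) and the CArG box. CArG boxes were present in 1 of the 7 windows, that of Dusp5, where 2 adjoining boxes spanned the bases 82 to 63 before the RefSeq start. Among all 32807 windows of the table, 1.47% held a CArG box and 0.0183% held 2 or more. The CRE, AP-1 and ETS letters were in none of the 7 windows, against 1.55%, 4.47% and 12% of all windows. A match describes the letters only, and the absence of one says nothing about the factor.

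Depth was 4661044 to 14455093 counts per tumor EC library and 12327030 to 16804071 per sprout EC library. A count of 3, taken as the floor, was worth 0.211 to 0.596 CPM (counts scaled to the size of the library) in tumor ECs and 0.177 to 0.244 CPM in sprout ECs. In tumor ECs the summed level of 12 endothelial markers was 8480 to 14149 CPM, and 9 pluripotency markers summed to 0.915 to 21.6 CPM. Leukocyte markers stood high in Apln-depleted replicate 1 (889 CPM) and wild-type replicate 4 (688 CPM), and fibroblast markers in wild-type replicate 2 (3813 CPM). Mural markers summed to 375 CPM in wild-type replicate 2 and 214 CPM in wild-type replicate 5, and to 21.5 to 56.1 CPM in the other tumor EC libraries. In sprout ECs the same endothelial list summed to 644 and 891 CPM in the STOP libraries and to 2565 and 2475 CPM in the GO libraries, while the pluripotency list summed to 5639 and 5496 CPM against 2119 and 3561 CPM. The label check on Apln held in tumor ECs only. Apln stood at 2.44 to 12.1 CPM in the Apln-depleted libraries and at 416 to 1033 CPM in wild type (log2 fold change -6.70, adjusted p = 6.13e-05, edgeR quasi-likelihood test). In the sprout libraries labelled STOP it stood at 66.1 and 80.2 CPM and in those labelled GO at 58.2 and 65.9 CPM (log2 fold change 0.24, adjusted p = 0.367, edgeR). The trap thus did not show as a lower Apln count, and the directions below are those of the labels. The study reported disrupted Apelin mRNA in STOP stem cells, delayed sprouting of STOP embryoid bodies and lower angiogenesis genes in STOP ECs.

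In the RefSeq annotation of GRCm38.p6 the phosphatase genes lie at chr2:127336159-127338377 (Dusp2), chr8:34807610-34819894 (Dusp4), chr19:53529145-53541809 (Dusp5) and chr10:99263231-99267489 (Dusp6). The Sprouty genes lie at chr3:37639947-37644599 (Spry1), chr14:105891947-105896819 (Spry2) and chr18:38586247-38601347 (Spry4), and the Spred genes at chr2:117121071-117182279 (Spred1) and chr11:19924442-20024026 (Spred2). Spry2 and Spry4 are read from the minus strand and the other 7 members from the plus strand. On the opposite strand, Gm42922 shares 710 bases with Spry1, and 2 small RNA genes of 71 and 119 bases lie within Spry4. Unless the counting used strand, reads of such neighbours cannot be told apart from those of the member.

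Levels of different genes were compared per length, as CPM per kilobase. In tumor ECs (n = 9 libraries) Dusp2 had the highest mean level, 66.8 ± 30.1 CPM per kilobase (SD), followed by Dusp6 at 52.7 ± 18.6, Spry4 at 32.9 ± 14.8, Spry2 at 28.8 ± 10.3, Dusp5 at 28.6 ± 20.3 and Spry1 at 22.4 ± 12.2. The Spred genes were lower, Spred1 at 11.0 ± 3.47 and Spred2 at 9.34 ± 2.26, and Dusp4 was the lowest at 4.56 ± 3.97 CPM per kilobase. The steps from Dusp6 to Spry4 and from Spred2 to Dusp4 exceeded the SD of both genes involved, and the other neighbours in this order did not differ beyond their spread.

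In sprout ECs (n = 4 libraries) the order was another one. Dusp6 led at 58.9 ± 16.0 CPM per kilobase, and Spry2 (40.0 ± 2.70) and Dusp4 (35.7 ± 4.97) came next. Dusp2 followed at 25 ± 19.3, its STOP and GO libraries being far apart. Spry4 (21.8 ± 4.04), Spred1 (19.5 ± 5.52), Spred2 (16.3 ± 1.03), Dusp5 (14.1 ± 4.88) and Spry1 (13.9 ± 1.91) closed the list. The step from Dusp6 to Spry2 exceeded the SD of both genes, and no other step did. The deposited TPM values, which come from a different counter, gave the same order in sprout ECs, from 86.6 TPM for Dusp6 to 18.8 TPM for Spry1. The order differed between STOP and GO. Dusp2 was last of 9 in STOP, at 8.33 CPM per kilobase. In GO it was level with Spry2, below Dusp6, at 41.7 against 41.4 CPM per kilobase. By TPM it lay below Spry2 in GO, at 65.1 against 69.4. Dusp4 stood at 39.2 CPM per kilobase in STOP and 32.1 in GO. The sets differ in library protocol, aligner and sort, and levels were not tested between them.

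The sprout ECs labelled STOP were compared with those labelled GO, beginning with the phosphatases. Dusp2, a nuclear phosphatase of ERK, was the member that changed. It stood at 11.3 and 15.6 CPM in the STOP libraries and at 70.3 and 64.6 CPM in the GO libraries. Every STOP library lay far below every GO library. The fitted level was 5.01-fold lower in STOP (log2 fold change -2.33 ± 0.195 SE, n = 2 against 2, adjusted p = 0.00242, edgeR quasi-likelihood test over all genes). Its counts were 167 to 192 in STOP and 800 to 1191 in GO, so counting error was small beside the difference.

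Dusp6, the cytoplasmic phosphatase specific to ERK, stood at 128.7 and 132.0 CPM in STOP and at 224.7 and 173.5 CPM in GO. The STOP libraries lay below both GO libraries and close to each other, while the GO libraries were well apart. The fitted difference was -0.61 ± 0.156 (log2, SE) with an adjusted p of 0.0587 by edgeR, short of both thresholds used here (adjusted p under 0.05 and a log2 fold change beyond 1). DESeq2 gave it an adjusted p of 0.0139 at the same size, below the fold threshold.

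Dusp5, the nuclear phosphatase specific to ERK, whose promoter holds the paired CArG boxes, stood at 12.3 and 12.1 CPM in STOP and at 24.1 and 16.7 CPM in GO. Both STOP libraries were again lower, with a log2 fold change of -0.75 ± 0.248 (SE) and an adjusted p of 0.112 by edgeR. An unstranded count cannot separate Dusp5 from the antisense gene AC137853.2, which shares 547 bases of its locus. Dusp4, a nuclear phosphatase of ERK, JNK and p38, went the other way at 95.8 and 94.6 CPM in STOP against 86.2 and 69.7 CPM in GO (log2 fold change 0.29 ± 0.150, adjusted p = 0.258).

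Among the Sprouty genes, Spry4 stood at 80.6 and 95.4 CPM in STOP and at 125.1 and 98.7 CPM in GO. The libraries did not overlap, but STOP replicate 2 and GO replicate 2 were nearly level (log2 fold change -0.35 ± 0.164, adjusted p = 0.220 by edgeR). Spry2 stood at 81.5 and 79.9 CPM in STOP and 91.9 and 80.7 CPM in GO, with overlapping libraries and a log2 fold change of -0.10 ± 0.138. Spry1 overlapped as well, at 31.8 and 31.1 CPM against 37.2 and 26.6 CPM (-0.02 ± 0.199, and 0.24 without GO replicate 1).

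Of the Spred genes, Spred1 stood at 82.1 and 108.4 CPM in STOP and at 162.9 and 131.6 CPM in GO. The groups did not overlap, and the log2 fold change of -0.63 ± 0.178 had an adjusted p of 0.0793 by edgeR. DESeq2 gave Spred1 an adjusted p of 0.0295 at a size below the fold threshold. Spred2 was level at 49.1 and 42.7 CPM against 47.2 and 48.8 CPM (-0.06 ± 0.150, and 0.0205 without STOP replicate 2), with overlapping libraries.

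**Figure D1:**
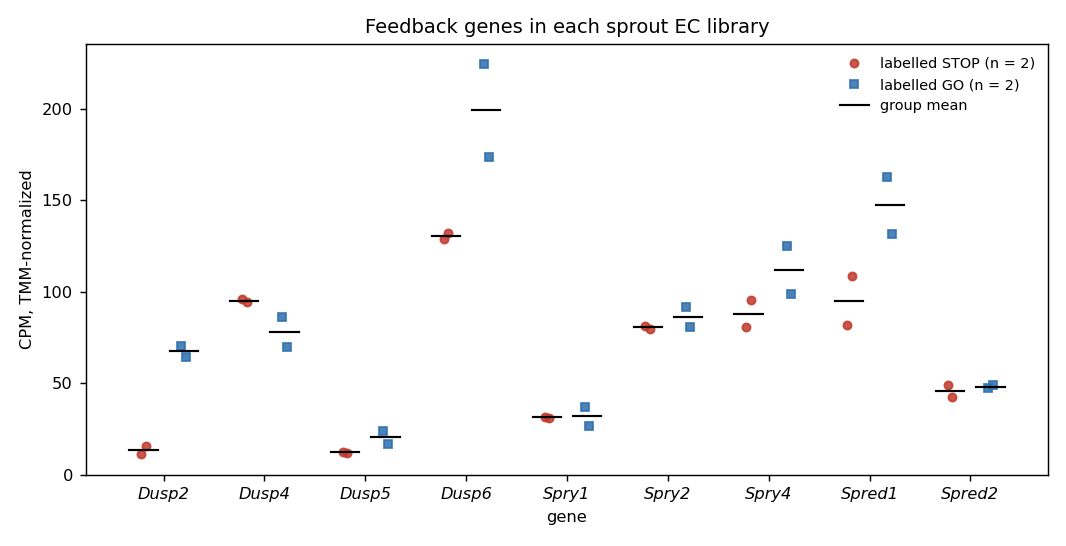
The plot gives the TMM-normalized CPM (linear axis from 0) of the 9 feedback genes in each sprout EC library, with circles for the 2 libraries labelled STOP, squares for the 2 labelled GO and a black bar for each group mean. Dusp2 is the gene whose groups lie furthest apart in proportion, 11.3 and 15.6 CPM against 70.3 and 64.6 CPM, and GO replicate 1 is the highest of the 4 libraries for 7 of the 9 genes.

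In sprout ECs, then, 1 of 9 members was called lower in STOP and 0 were called higher, where 3.03% of the 14557 genes tested were called lower and 0.852% higher. At an unadjusted p under 0.05, 4 members were lower (Dusp2, Dusp5, Dusp6 and Spred1) and 0 higher, against 14.3% and 12.4% of all genes. In 5 members both STOP libraries lay below both GO libraries and in 1 above, where 29.6% and 31% of all genes did so. The fitted difference was below 0 in 8 members, with a median of -0.35 beside 0.01 over all genes tested. GO replicate 1, highest for 7 of the 9 members, also had the highest fibroblast marker sum of the 4 libraries, 2133 CPM against 434 CPM in GO replicate 2, 2004 CPM in STOP replicate 2 and 344 CPM in STOP replicate 1. The part of these other cells in the members' values was not tested.

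The endothelial markers themselves moved with the comparison. Of the 12, 11 were called lower in STOP, the fitted log2 values ranging from -2.5 to -0.80 around a median of -1.96, and all 9 pluripotency markers were higher at an unadjusted p under 0.05 with a median of 0.88 (1 called). Among them, the VE-cadherin gene Cdh5 stood at 122 and 212 CPM in STOP and at 681 and 634 CPM in GO, Eng (CD105) at 76.8 and 80.6 CPM against 174 and 154 CPM, and the sort marker Pecam1 (CD31) at 139 and 169 CPM against 264 and 273 CPM. Eng was not called without STOP replicate 1 (adjusted p = 0.0659) or without GO replicate 1 (log2 fold change -0.97), nor Cdh5 without GO replicate 1 (adjusted p = 0.206) or GO replicate 2 (0.0717). With the replicate number as a block, edgeR gave an adjusted p of 0.0615 for Eng and 0.0548 for Cdh5. Same-numbered sprout libraries did not pair (r of their deviations -0.45), which limits this block here and in later paragraphs. Embryonic stem cells express Pecam1 as well, so the CD31 gate need not have admitted ECs alone. The pluripotency sum was above the endothelial sum in both STOP libraries and in GO replicate 2. The name sprout ECs is that of the sort. In bulk libraries such as these, fewer ECs and less RNA per EC cannot be told apart. Dusp2 lay 0.36 below the endothelial median on the log2 scale, and 2 of the 12 endothelial markers had a lower fitted value than Dusp2. The other 8 members had higher fitted values than all 12 markers.

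The members were also set against the endothelial markers, a divisor that stood lower in STOP. Per 1000 CPM of the summed endothelial list, Dusp2 stood at 17.6 CPM in both STOP libraries and at 27.4 and 26.1 CPM in the GO libraries, a mean 1.52-fold lower in STOP. Of all genes tested, 0.907% lay lower in both STOP libraries than in both GO libraries on this scale. The other 8 members lay higher in both STOP libraries, as did 92.6% of all genes, so their direction here is the common one. Dusp5, with the smallest such gap, was 2.02-fold higher in STOP, and Dusp4, with the widest, 4.13-fold. The sum is weighted toward the markers with the highest CPM. Pecam1 and Eng fell less (log2 fold change -0.80 and -1.06) than the median marker (-1.96), and 2 of the 12 markers fell more than Dusp2. The lower ratio of Dusp2 therefore depends on the markers used as the divisor. Embryonic stem cells also express feedback genes of ERK, so these ratios need not describe the ECs alone. The part of cell composition in the fall of Dusp2 was not tested.

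**Figure D2:**
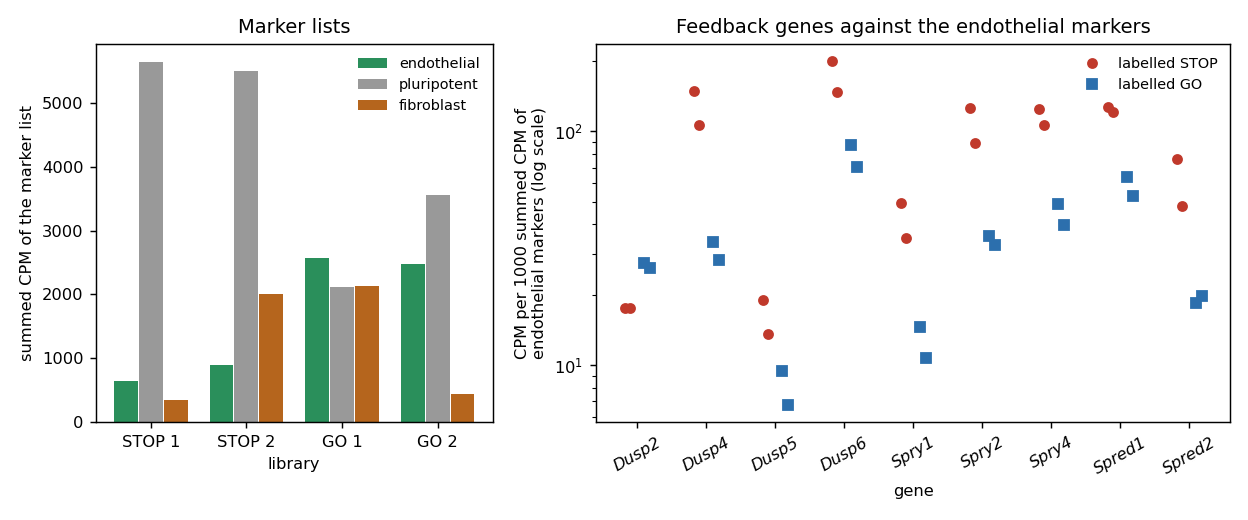
The left panel shows the summed CPM of the endothelial, pluripotent and fibroblast marker lists in each sprout EC library, and the right panel the CPM of each feedback gene per 1000 summed CPM of endothelial markers (log axis), with circles for STOP and squares for GO. Endothelial sums are 644 and 891 CPM in STOP against 2565 and 2475 CPM in GO. The STOP points of Dusp2 stay below its GO points after division by this sum, as in 0.907% of all genes tested. Those of the other 8 lie above, as in 92.6%. Of the 12 markers in the sum, 2 fell more than Dusp2, so its place depends on the divisor.

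In tumor ECs no member was called. Of the 9 members, 0 were called lower and 0 higher by edgeR, where 0.00765% of the 13073 genes tested (1 gene, Apln) were called lower and 0% higher. At an unadjusted p under 0.05, 0 members passed in either direction, against 2.94% lower and 1.87% higher among all genes, and DESeq2 and limma voom called 0 members too. Over all genes DESeq2 called 97 lower and 19 higher, and voom 1 and 1. All 9 members overlapped between the groups, while 2.33% of all genes did not overlap. Every adjusted p of a member was 1.00 by edgeR. Fitted differences were above 0 in 7 members and below 0 in 2, with a median of 0.32 beside -0.03 over all genes. The 12 endothelial markers had a median of 0.33, with 11 above 0 and 0 called, and summed to 10781 to 14149 CPM in Apln-depleted and 8480 to 12336 CPM in wild-type libraries. Per 1000 CPM of that sum, all 9 members overlapped between the groups, where 3.82% of all genes did not, and the ratio of the group means, Apln-depleted over wild type, ran from 0.561 (Dusp4) to 1.30 (Spry1). The part of endothelial content in the members' tumor values was not tested.

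Among the phosphatases of tumor ECs, Dusp6 stood at 159.6, 266.4 and 140.4 CPM in the Apln-depleted libraries and at 70.2 to 153.1 CPM in the 6 wild-type libraries, with a wild-type median of 137.7 CPM. Apln-depleted replicate 2 was the highest library and wild-type replicate 5 the lowest. The difference was 0.58 ± 0.316 (log2, SE), and 0.24 without Apln-depleted replicate 2. Dusp2 stood at 141.4, 170.0 and 48.3 CPM in Apln-depleted and at 34.7 to 153.2 CPM (median 96.4) in wild-type libraries. The spread within each group was wider than the gap between them (0.23 ± 0.448), and without Apln-depleted replicate 2 the fitted value was -0.12.

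Dusp5 was set by single libraries, at 23.8, 77.5 and 12.9 CPM in Apln-depleted and at 14.1 to 63.0 CPM (median 24.1) in wild type. Its fitted difference of 0.32 ± 0.605 turned to -0.74 without Apln-depleted replicate 2. Dusp4 was the most uneven member, at 18.5, 2.74 and 3.05 CPM against 0.293 to 29.6 CPM (median 13.3), a 101-fold range over the 9 libraries that reaches down to the floor of 3 counts in wild-type replicate 2. In the other 8 members the highest library was 2.17 to 9.48 times the lowest. Its difference was -0.64 ± 1.05 (log2, SE) and moved to -2.10 without Apln-depleted replicate 1, the library highest in leukocyte markers, and to -0.18 without wild-type replicate 6, with no adjusted p under 0.86 by edgeR.

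Among the Sprouty genes of tumor ECs, Spry4 stood at 158.5, 152.9 and 294.5 CPM in the Apln-depleted libraries and at 66.6 to 177.5 CPM (median 136.0) in wild type. Apln-depleted replicate 3 stood alone at the top, and the other 8 libraries overlapped (0.68 ± 0.367, and 0.31 without that replicate). Spry1 stood at 50.6, 105.4 and 53.7 CPM against 11.1 to 66.0 CPM (median 40.7), with Apln-depleted replicate 2 highest and a difference of 0.75 ± 0.498, or 0.33 without that library. Spry2 stood at 31.3, 67.5 and 89.0 CPM against 38.6 to 93.3 CPM (median 53.2), and its difference of 0.09 ± 0.399 turned to -0.24 without Apln-depleted replicate 3 and to -0.0043 without wild-type replicate 1.

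The Spred genes were the most even of the family in tumor ECs. Spred1 stood at 47.1, 93.2 and 102.0 CPM in Apln-depleted and at 48.6 to 91.2 CPM (median 56.7) in wild-type libraries. Its difference of 0.38 ± 0.350 ran from 0.18 to 0.65 with single libraries left out. Spred2 stood at 26.5, 31.1 and 20.3 CPM against 13.7 to 33.6 CPM (median 29.4), a difference of -0.07 ± 0.453 that turned to 0.0842 without Apln-depleted replicate 3 and to 0.00068 without wild-type replicate 2. Leaving out the 2 libraries with high leukocyte markers, or these and the library with high fibroblast markers, again left 0 members called.

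**Figure D3:**
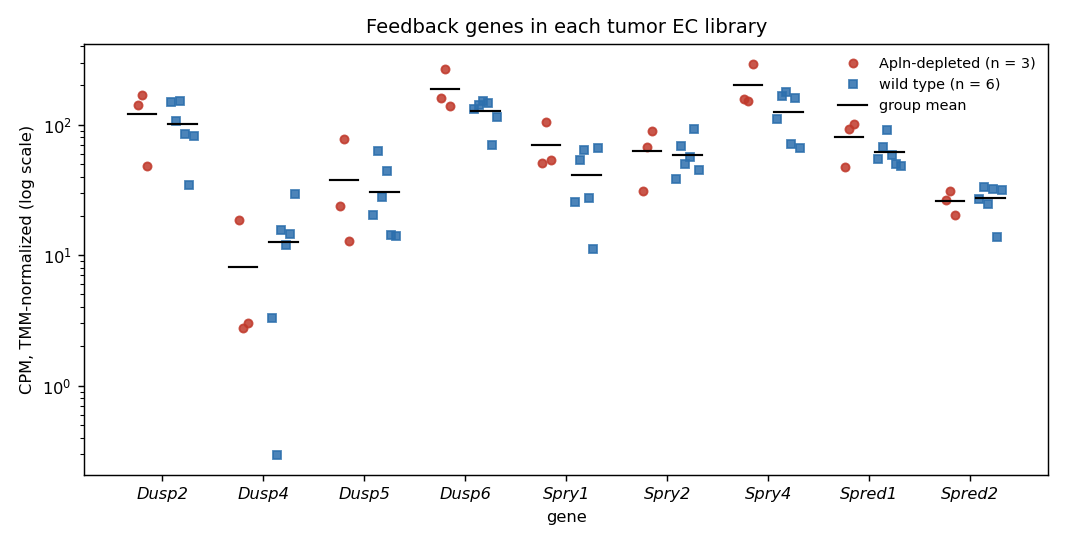
The plot gives the TMM-normalized CPM (log axis) of the 9 feedback genes in each tumor EC library, with circles for the 3 Apln-depleted libraries, squares for the 6 wild-type libraries and a black bar for each group mean. The groups overlap for all 9 genes, and Dusp4 runs from 0.293 to 29.6 CPM.

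The members did not move as one across the 9 tumor EC libraries. As a description over libraries that share a sort but differ in depth, Pearson's r of log2(CPM + 2) was taken between pairs of members. It ran from 0.80 (Dusp6 and Spry1) to -0.69 (Dusp2 and Spry2). Dusp6 also ran with Dusp2 (0.76) and Dusp5 (0.70), and Spry4 with Spred1 (0.62). Apln-depleted replicate 2 was the highest library for Dusp2, Dusp5, Dusp6 and Spry1, and wild-type replicate 5 was the lowest for Dusp2, Dusp6, Spry1 and Spred2 but the highest for Spry2. Over all 13072 other genes tested, those closest to Dusp6, the phosphatase with the highest mean CPM though not the highest per length, were Exoc2 (r = 0.98), Phc1 (0.96) and Emp1 (0.96). Those closest to Spry4 were Pdzd8 (0.93), Slc35a5 (0.93) and Eya3 (0.92), and those closest to Spred1 were Vcl (0.93), Tbc1d16 (0.90) and Prkd1 (0.90). Such a search picks the highest of many values. An r over 0.9 was reached by 24 genes for Dusp6, 6 for Spry4 and 3 for Spred1. For Dusp6, Apln-depleted replicate 2 stood apart at 266.4 CPM, the next library being at 159.6 CPM.

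The effects in the 2 sets were compared directly in 1 model over all 13 libraries. Dusp2 differed most, with a tumor effect 2.5 ± 0.747 (log2, SE) above the sprout effect (adjusted p = 0.458, edgeR), and Dusp6 was at 1.14 ± 0.50 (adjusted p = 0.990). In this test 0 of 9 members and 0.00634% of 15763 genes passed an adjusted p under 0.05. limma voom, with weights that let each set have its own spread, called 155 genes and 1 member, Dusp2 (2.49, adjusted p = 0.0284). That Dusp2 was called in sprout ECs and not in tumor ECs is therefore shown as a difference by 1 of the 2 tools.

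**Figure D4:**
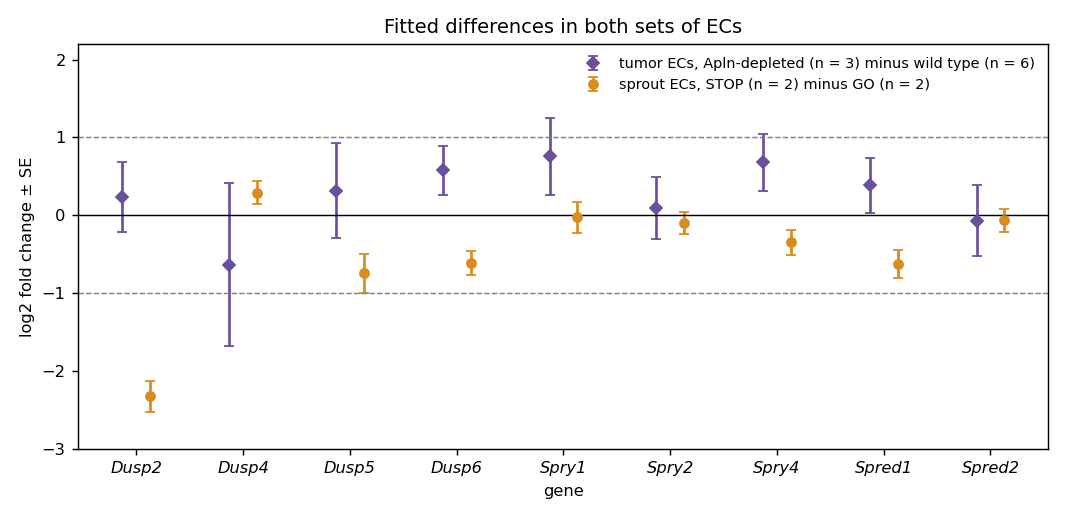
The plot gives the fitted log2 fold change with its SE for each feedback gene, with diamonds for tumor ECs (Apln-depleted minus wild type) and circles for sprout ECs (STOP minus GO), and dashed lines at the fold threshold of 1 in each direction. Dusp2 in sprout ECs, at -2.33, is the one point beyond the dashed lines, and the tumor error bars are wider throughout.

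In the kinase chain that the members restrain, 1 gene was called in sprout ECs. Of 25 genes from Ras to ERK and its kinases, all tested, 1 was called lower and 0 higher, 7 were lower and 2 higher at an unadjusted p under 0.05, and the median was 0.01. The called gene was Rasgrp3, a Ras exchange factor of ECs, at 26.0 and 36.7 CPM in STOP and 133 and 114 CPM in GO (log2 fold change -1.99, adjusted p = 0.00434, edgeR). Of all 14557 genes tested, the calls took in 3.03% in the lower direction and 0.852% in the higher. Before adjustment, p stayed below 0.05 for 14.3% in the lower direction and for 12.4% in the higher. Upstream, 6 of 24 tested receptors and ligands were called lower and 0 higher, with a median of -0.59. They included Kdr (VEGF receptor 2, -1.95), Flt1 (VEGF receptor 1, -1.73), Flt4 (VEGF receptor 3, -1.71), Tek (Tie2, -1.84) and Aplnr (the Apelin receptor, -2.25), of which Kdr and Tek are also on the endothelial list. Rasgrp3 and these receptors lay within the range of the endothelial markers in the same comparison (-2.5 to -0.80, median -1.96). The part of endothelial content in their values was not tested. Kdr missed the threshold when the replicate number was a block (adjusted p = 0.0544).

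Of 12 further feedback genes tested in sprout ECs, 1 was called lower and 1 higher, with a median of -0.26. Over all genes tested, 3.03% were called lower and 0.852% higher. With the replicate number as a block, 0 of the list were called in either direction. Spred3, a relative of Spred1 and Spred2, stood at 13.7 and 17.8 CPM in STOP and at 43.9 and 40.7 CPM in GO (-1.42, adjusted p = 0.00999). Dusp9, an ERK phosphatase also made by embryonic stem cells, stood at 354 and 396 CPM in STOP and at 132 and 190 CPM in GO (1.22, adjusted p = 0.0166, edgeR), and so rose where Dusp2 fell. Without STOP replicate 1 neither was called (adjusted p = 0.0647 for Spred3 and 0.0560 for Dusp9), and without GO replicate 1 Dusp9 was at 0.98, short of the fold threshold. Without GO replicate 2 the list had 2 genes called lower. Spry3 was listed at 0 in every sprout EC library.

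Among 24 transcription factors and other targets of ERK in sprout ECs, 3 were called lower and 0 higher, with a median of -0.97. These were the ETS factors Ets1 (-1.88) and Elk3 (-1.55) and the ERK target Phlda1 (-1.41). Like Spred3 above, all 3 lay within the range of the endothelial markers (-2.5 to -0.80), and the part of endothelial content was not tested. Over all genes tested, 3.03% were called lower. With the replicate number as a block the list had 0 genes called lower, and with DESeq2 or the crossed block it had 5. Phlda1 missed the threshold in edgeR without STOP replicate 1, STOP replicate 2 or GO replicate 1 (adjusted p = 0.276, 0.105 and 0.103), and Ets1 without GO replicate 1 (0.0689). Without GO replicate 1 the list had 1 call and without GO replicate 2 it had 12. In tumor ECs the call among these 4 lists was Apln alone by edgeR, while DESeq2 called 2 of the receptors and ligands lower. The tumor medians were 0.00 for the kinase chain, 0.15 for receptors and ligands, -0.52 for the other feedback genes and 0.33 for the ERK targets.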

How the data were processed

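RNA-seq libraries of tumor ECs (3 Apln-depleted, 6 wild type) and of sprout ECs (2 STOP, 2 GO) were read as deposited, with groups taken from the sample labels. For tumor ECs the authors deposited whole-number counts per gene. The submitters' processing notes list Trim Galore 0.5.0, Bowtie2 2.3.4.1, SAMtools 1.9 and featureCounts of Subread 1.6.2, while the methods of the paper name STAR, and the strand setting of the counting is not given in the sources used here. For sprout ECs the authors deposited counts from HTSeq 0.6.1p1 on STAR 2.5.0a alignments, and estimated counts and TPM from RSEM 1.2.25. Both sets were mapped to mm10. HTSeq's closing tally lines were left out.

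Counts were fitted with edgeR 4.0.16 (R 4.3.3; robust quasi-likelihood fit, TMM scaling, filterByExpr with a minimum count of 10), in 1 fit for each set of ECs and 1 joint fit for the difference of effects, with Benjamini-Hochberg adjustment over all genes tested. Genes were called at an adjusted p under 0.05 and an absolute log2 fold change over 1, the thresholds of the study. CPM used TMM-scaled library sizes, and CPM per kilobase the gene lengths of the RSEM files. RSEM's estimated counts were rounded for an alternative fit, and TPM were printed only as levels. Alternatives were DESeq2 1.42.0, its size factors in edgeR, other filters on low counts, no fold threshold, a replicate block and leaving out each library. The voom method of limma 3.58.1 was an alternative for tumor ECs and for the joint fit only. The crossed block in sprout ECs, the fits without libraries high in leukocyte or fibroblast markers and the shares of all genes per endothelial sum were chosen after seeing the data. The members and gene lists were chosen with earlier results of these data known. The text names all 9 members in both sets (with range and median for the 6 wild-type tumor libraries), up to 5 called genes per list and direction, Apln, Pecam1, Eng and Cdh5, and, for the member of each family with the highest mean CPM in tumor ECs (not per length), the 3 genes most correlated with it. The scripts were tested on simulated data.

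Nothing in the labels ties libraries to separate animals or cultures, so p-values measure the spread between these libraries. All replicate pairs differed beyond sampling noise. Counting floors cover counting error only. RefSeq (GRCm38.p6) held gene positions for all 9 members and promoters for 7, and GENCODE vM21 gave strands and overlapping genes.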

Additional observations from a re-analysis of the deposited data

How the results depend on the processing

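The count of members called was the same under every alternative in each set of ECs: 0 in tumor ECs over 18 alternatives, and Dusp2 alone, lower, in sprout ECs over 12, with a log2 fold change of -2.59 to -2.09 and an adjusted p of at most 0.0358 (the replicate block in edgeR). Sprout ECs alone were not fitted with limma voom. The difference between the sets was called for 0 members except by limma voom, which called 1. Same-numbered libraries did not pair: the correlations of their deviations were -0.08, 0.06 and -0.16 in tumor ECs and -0.45 in sprout ECs. With a replicate block, 2 genes were called lower and 0 higher in tumor ECs (1 and 0 without it), and 41 lower and 3 higher in sprout ECs (441 and 124 without it). Crossed numbers gave 933 lower and 302 higher in sprout ECs. DESeq2 called 97 lower and 19 higher in tumor ECs and 628 and 198 in sprout ECs, no filter 7 and 9 in tumor ECs and 632 and 222 in sprout ECs, and leaving out single libraries 135 to 548 lower and 12 to 341 higher in sprout ECs. The block turned the tumor values of Dusp2 to -0.35, Dusp4 to 1.33, Dusp5 to -0.18 and Aplnr to -0.31. Aplnr turned to -0.26 under voom, and leaving out the 3 libraries high in leukocyte or fibroblast markers turned Spred2 to 0.0825. None of these had an adjusted p under 0.05 in either form, although Dusp4 at 1.33 lay beyond the fold threshold, and the cause was not tested. Leaving out single libraries gave tumor ranges of -0.12 to 0.61 for Dusp2, -2.10 to -0.18 for Dusp4, -0.74 to 0.74 for Dusp5, 0.24 to 0.76 for Dusp6, 0.33 to 0.94 for Spry1, 0.31 to 0.84 for Spry4, -0.24 to 0.41 for Spry2, -0.22 to 0.0842 for Spred2, -0.0135 to 0.24 for Pecam1, -0.21 to 0.51 for Rasgrp3, -0.46 to 0.67 for Aplnr, -0.0359 to 0.46 for Ets1 and -0.39 to 0.68 for Phlda1. In sprout ECs it gave 0.15 to 0.45 for Dusp4, -0.98 to -0.45 for Dusp5, -0.78 to -0.41 for Dusp6 and -0.86 to -0.42 for Spred1. Spry1 ran from -0.24 to 0.24 there, Spry2 from -0.18 to -0.0008, Spry4 from -0.50 to -0.17 and Spred2 from -0.15 to 0.0205. For the difference between the sets, single libraries left out gave -0.0315 to 1.43 for Dusp5, -0.20 to 0.48 for Spry2 and -0.19 to 0.0928 for Spred2. With the block, Kdr (adjusted p = 0.0544), Cdh5 (0.0548), Eng (0.0615), Spred3 (0.0699), Dusp9 (0.0597), Elk3 (0.0606), Ets1 (0.0864) and Phlda1 (0.123) lost their calls in sprout ECs. The adjusted p of 3 uncalled members in sprout ECs moved widely over tools, blocks and libraries left out, from 0.00217 to 0.315 for Dusp6, from 0.000997 to 0.414 for Spred1 and from 0.0187 to 0.556 for Dusp5, with no value beyond the fold threshold.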
